A study of Mus musculus with 10 samples.

Results

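Microglia of the mouse brainstem were isolated in this series by laser microdissection or by flow sorting, and RNA-seq libraries of both methods from mice with GFP expressing microglia are compared here across all genes. The question is what the isolation method does to the list of transcripts found in microglia, oligodendrocyte and neuron transcripts included. The comparison takes 7 of the 10 libraries of the series, chosen by their labels: 4 laser-captured libraries (LCM_GFP, 3 female and 1 male, replicate 2 being the male) and 3 flow-sorted libraries (FACS_GFP, 2 female and 1 male, replicate 2 being the male), all from mice aged 6 weeks. The strain of the GFP mice, the promoter that drives GFP and any pooling of animals are not given in the sources used here. The labels name each library a biological replicate, so the p-values measure the spread between these libraries. The other 3 libraries are sorted microglia of male wild-type C57BL/6 mice and did not enter the fit. Of the 37447 genes in the deposited table, 13403 had at least 1 FPKM (fragments per kilobase of transcript and 1e6 mapped fragments) in at least 3 of the 7 libraries and were tested.

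Microglia are the resident macrophages of the central nervous system. They read their surroundings through purinergic receptors, Fc and Toll-like receptors and TGF-beta receptors, and they digest what they engulf in lysosomes. Sorting takes the cell body out of dissociated tissue as a suspension, whereas laser capture lifts a marked cell area from a fixed, frozen section. Within this series the method cannot be told apart from fixation (paraformaldehyde only before laser capture), from Percoll enrichment (only before sorting) or from RNA extraction (proteinase K with acid phenol after laser capture, TRIzol after sorting).

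The labelled cell type was checked first. All 30 listed microglia markers were detected in both groups, and their FPKM summed to 3652, 8652, 8027 and 3633 in laser-captured replicates 1 to 4 and to 15213, 13389 and 16324 in sorted replicates 1 to 3. Of the 30 markers 19 were called lower after laser capture and none higher. That count was 2 to 24 without 1 library in turn, 4 under median ratio scaling and 2 with variances per gene and group. Cx3cr1, the fractalkine receptor of microglia, read 25.5, 51.3, 61.5 and 22.3 FPKM after laser capture and 72.5, 64.6 and 70.4 FPKM after sorting. Markers of other brain cells were present in the laser-captured libraries at a similar order of summed level: 3671 to 9532 FPKM for 20 mature oligodendrocyte genes, 2858 to 6014 FPKM for 20 neuron genes and 1347 to 2481 FPKM for 20 astrocyte genes, against 233 to 265, 182 to 214 and 414 to 452 FPKM in the sorted libraries. Of these markers, 17 of 20 oligodendrocyte, 20 of 20 neuron and 16 of 20 astrocyte genes were called higher after laser capture, and 12, 12 and 16 of each 20 had passed the low-value filter through the laser-captured libraries alone. Most of each sorted sum came from 1 gene: Trf (199 to 230 FPKM) for oligodendrocytes, Rtn1 (155 to 180) for neurons and Glul (383 to 419) for astrocytes. Trf and Glul were not called. The 3 oligodendrocyte markers listed at 0 in all 3 sorted libraries were Fa2h, Gjb1 and Opalin. Of blood leukocyte markers, Cd3e of T cells, Ms4a1 of B cells and Ly6g of neutrophils were listed at 0 in all 7 libraries. Cd79b, a B cell gene that microglia also make, read 0, 31.2, 2.19 and 0.264 against 41.0, 34.3 and 50.8 FPKM. All 10 tested oligodendrocyte precursor genes were higher, 9 of 15 endothelium genes were higher and 1 lower, and 5 of 8 pericyte, smooth muscle and fibroblast genes were higher. Of these 10, 15 and 8 genes 10, 9 and 8 had passed the filter through the laser-captured libraries alone, so a higher level was built into their selection. Of 8 perivascular macrophage genes 2 were lower, Pf4 and Mrc1. The part that these other cells had in any result below was not tested.

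Markers of particular nerve cell groups were uneven. Tph2, which makes serotonin in the raphe nuclei, read 0.0302, 0, 29.2 and 0.229 FPKM after laser capture. Chat, the enzyme of cholinergic neurons, read 0.610, 0, 0.0119 and 1.74 FPKM. Of 16 genes of brainstem motor and monoamine neurons only Ddc passed the low-value filter, and it was not called (log2 change 2.81, adjusted p = 0.0607). Ddc became a higher call from laser-captured libraries 2 and 4 alone and without laser-captured library 1 (adjusted p = 0.00145 to 0.00429 in limma). Library 3 alone thus held a clear level of Tph2. Of 6 tested genes from a list for cerebellar neurons 3 were higher: Zic1 (35.9, 13.7, 83.1 and 82.4 against 0, 0.00867 and 0.106 FPKM after sorting), Pvalb and Rgs8, while Gabra6 and Neurod1 of granule cells stayed at 0.242 FPKM or less after laser capture. Among genes listed for Schwann cells, Sox2 was higher, and Pmp22 (94.4, 352, 310.2 and 127 against 799.9, 704 and 751 FPKM) and Egr2 were lower. Among those for ependyma and choroid plexus, Foxj1, a factor of ciliated cells, was higher (log2 change 2.52, adjusted p = 0.0138) and Kcnj13, a potassium channel, lower at 0, 1.89, 1.18 and 1.84 against 20.8, 22.6 and 21.9 FPKM (log2 change −3.47, adjusted p = 0.00186). Only 4 Schwann cell and 3 ependyma genes were tested. Through the laser-captured libraries alone 3 cerebellar, 2 Schwann cell and 1 ependyma genes had passed the low-value filter, among them Zic1, Sox2 and Foxj1. A higher level was built into their selection. The call of Mrc1 ended without any 1 of the sorted libraries or the laser-captured library 1, 2 or 3, and those of Rgs8, Sox2, Pmp22 and Foxj1 without any 1 of the sorted libraries (adjusted p = 0.0517 to 0.121 in limma). Mrc1 was not called from laser-captured libraries 2 and 4 alone either (adjusted p = 0.111 in limma).

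The laser-captured libraries were far less alike than the sorted ones. The median SD of a tested gene on the log2(FPKM + 1) scale was 0.964 in the laser-captured group and 0.130 in the sorted group. Implied depths, read from the steps between low FPKM values and only estimates, were 27.1 to 41.0 (in units of 1e6 fragments) for the laser-captured libraries and 49.3 to 63.4 for the sorted ones. Only 54.5% to 74.5% of these low values came within 0.2 of a whole read. A difference in depth between the methods is therefore not shown. The 10 most abundant genes took 34.4%, 24.5%, 7.04% and 7.74% of the summed FPKM in the laser-captured libraries and 8.64% to 16.7% in the sorted libraries. The laser-captured libraries 1 and 3 also held embryonic globin and cell-cycle transcripts, described below. Both are labelled female and held values for some Y chromosome genes but not for others. Key counts are therefore also given with the laser-captured libraries 2 and 4 only.

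Differences between the methods were widespread. With limma on log2(FPKM + 1) and a Benjamini-Hochberg adjusted p under 0.05, 4305 genes were called (32.1% of those tested), 1681 (12.5%) higher and 2624 (19.6%) lower in the laser-captured libraries. A call below always means this test. The higher calls were mostly genes that the sorted libraries lacked: their median level was 0.0765 FPKM in the sorted and 16.8 FPKM in the laser-captured libraries, with a median log2 change of 3.00. The lower calls stood at a median of 15.3 FPKM after sorting and 2.30 FPKM after laser capture and a median log2 change of −2.04, and 942 of them had a mean under 1 FPKM after laser capture. Over all tested genes the median log2 change was −0.60, and the median after median ratio scaling of the libraries was −0.12. That scaling moved the split from 1681 higher and 2624 lower to 1856 and 1252 (59.7% of calls higher in place of 39.0%), and quantile normalization moved it to 1909 and 1791 (51.6%). A lower call of modest size is therefore read below beside its count under median ratio scaling. With the laser-captured libraries 2 and 4 only, 2424 genes were higher and 4227 lower, and without any 1 of the sorted libraries 897 to 914 were higher and 1081 to 1112 lower. Variances estimated per gene and group (group variances), which allow for the wider spread after laser capture, gave 957 higher and 1388 lower. In simulated data with this unequal spread the test made more false calls than the nominal 5%. Brackets after the count of a list give that count without 1 library in turn and with group variances. In each of the 18 alternative settings, no gene called both there and in the main fit changed direction.

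The low-value filter bears on these counts. It was passed by 1707 genes through the laser-captured libraries alone, of which 1246 were called higher, and by 618 genes through the sorted libraries alone, of which 614 were called lower. For the former a higher level was built into the selection, as for Itgb8, Vav3, Klf9, Eef1a2 and Aldoc. For the latter a lower level was built in, as for Cxcl10, Cybb, Capg and Egr2. Such members were not counted per list, so the lower counts of lists below can hold them. Among the 6954 genes with at least 1 FPKM in all 7 libraries, 361 were higher and 1005 lower. All 4 laser-captured values lay above all 3 sorted values for 2278 genes (17.0%) and below them for 4186 genes (31.2%). Fewer cells that make a transcript and less of it per cell cannot be told apart in such bulk libraries.

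**Figure D1:**
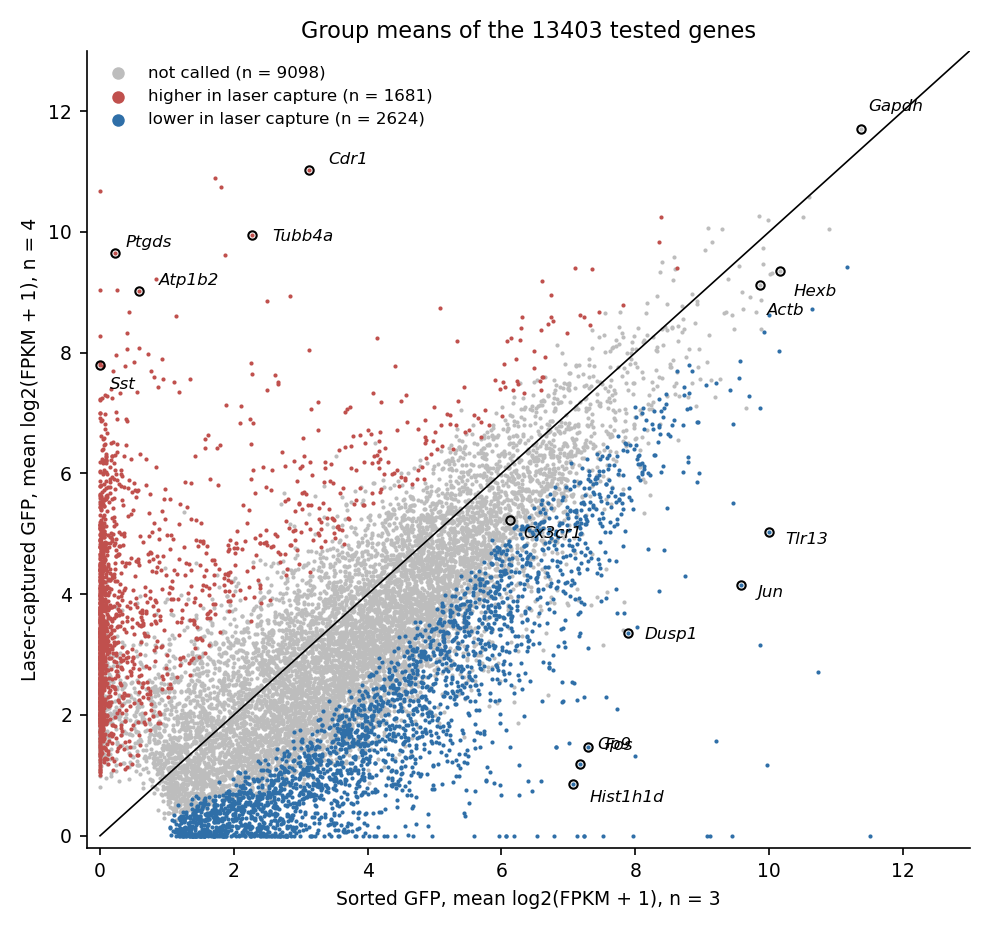
Group means on the log2(FPKM + 1) scale for the 13403 tested genes, sorted GFP libraries on the x axis (n = 3) and laser-captured GFP libraries on the y axis (n = 4), with the line of equality. Red and blue points are the 1681 and 2624 genes called higher and lower after laser capture, and grey points were not called. A column of red points stands at the left edge, where sorted levels are near 0, and Fos, Jun and Tlr13 lie far below the line.

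The largest differences in each direction are taken among called genes without overlap and with a mean of at least 5 FPKM in the group with more, and without predicted genes, pseudogenes and small RNAs. Upward, Ptgds, which makes prostaglandin D2 in leptomeninges and oligodendrocytes (mm9, chr2:25322229-25325566), read 494, 360.2, 1043 and 2205 FPKM after laser capture and 0.198, 0.0907 and 0.226 FPKM after sorting (log2 change 9.42, SE 0.62, adjusted p = 8.95e-05). Apod, a lipid carrier of oligodendrocytes (chr16:31296278-31314894), read 332, 559, 652 and 620.5 against 0.152, 0.348 and 0.0783 FPKM (log2 change 8.79, SE 0.37, adjusted p = 1.49e-05). Cdr1 (chrX:58436421-58438733), whose locus is known for an abundant neuronal circular RNA from the opposite strand, read 1581, 2422, 2279.8 and 2180.5 against 2.06, 4.00 and 41.8 FPKM (log2 change 7.91, SE 0.81, adjusted p = 0.000458). In all 3 genes the lowest laser-captured value stood above the highest sorted value. Strand-specific counting is not stated, so reads of Cdr1 and of its antisense partner cannot be told apart. Also among these 10 largest were Mbp of oligodendrocytes, Atp1b2, Aplp1, Tmem47, Gnao1 and Mtap2, with log2 changes from 7.92 to 8.93.

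Downward, the 10 included 3 AP-1 subunits (Fos, Junb and Jun), 3 histone genes (Hist1h1d, Hist1h1c and Hist1h3d), Ccl3, Rgs1 and Gp9. Gp9, a subunit of the platelet von Willebrand factor receptor (chr6:87728130-87729756), read 0, 1.48, 8.81 and 0.105 FPKM after laser capture and 155, 118 and 162 FPKM after sorting (log2 change −5.99, SE 0.80, adjusted p = 0.00121). Every laser-captured value of Gp9 lay below every sorted one. From laser-captured libraries 2 and 4 alone the call of Rgs1 ended (adjusted p = 0.0544 in limma). The gene lists that follow were written from general knowledge, with earlier results of these data known, and are read against the shares of all tested genes, 12.5% higher and 19.6% lower.

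**Figure D2:**
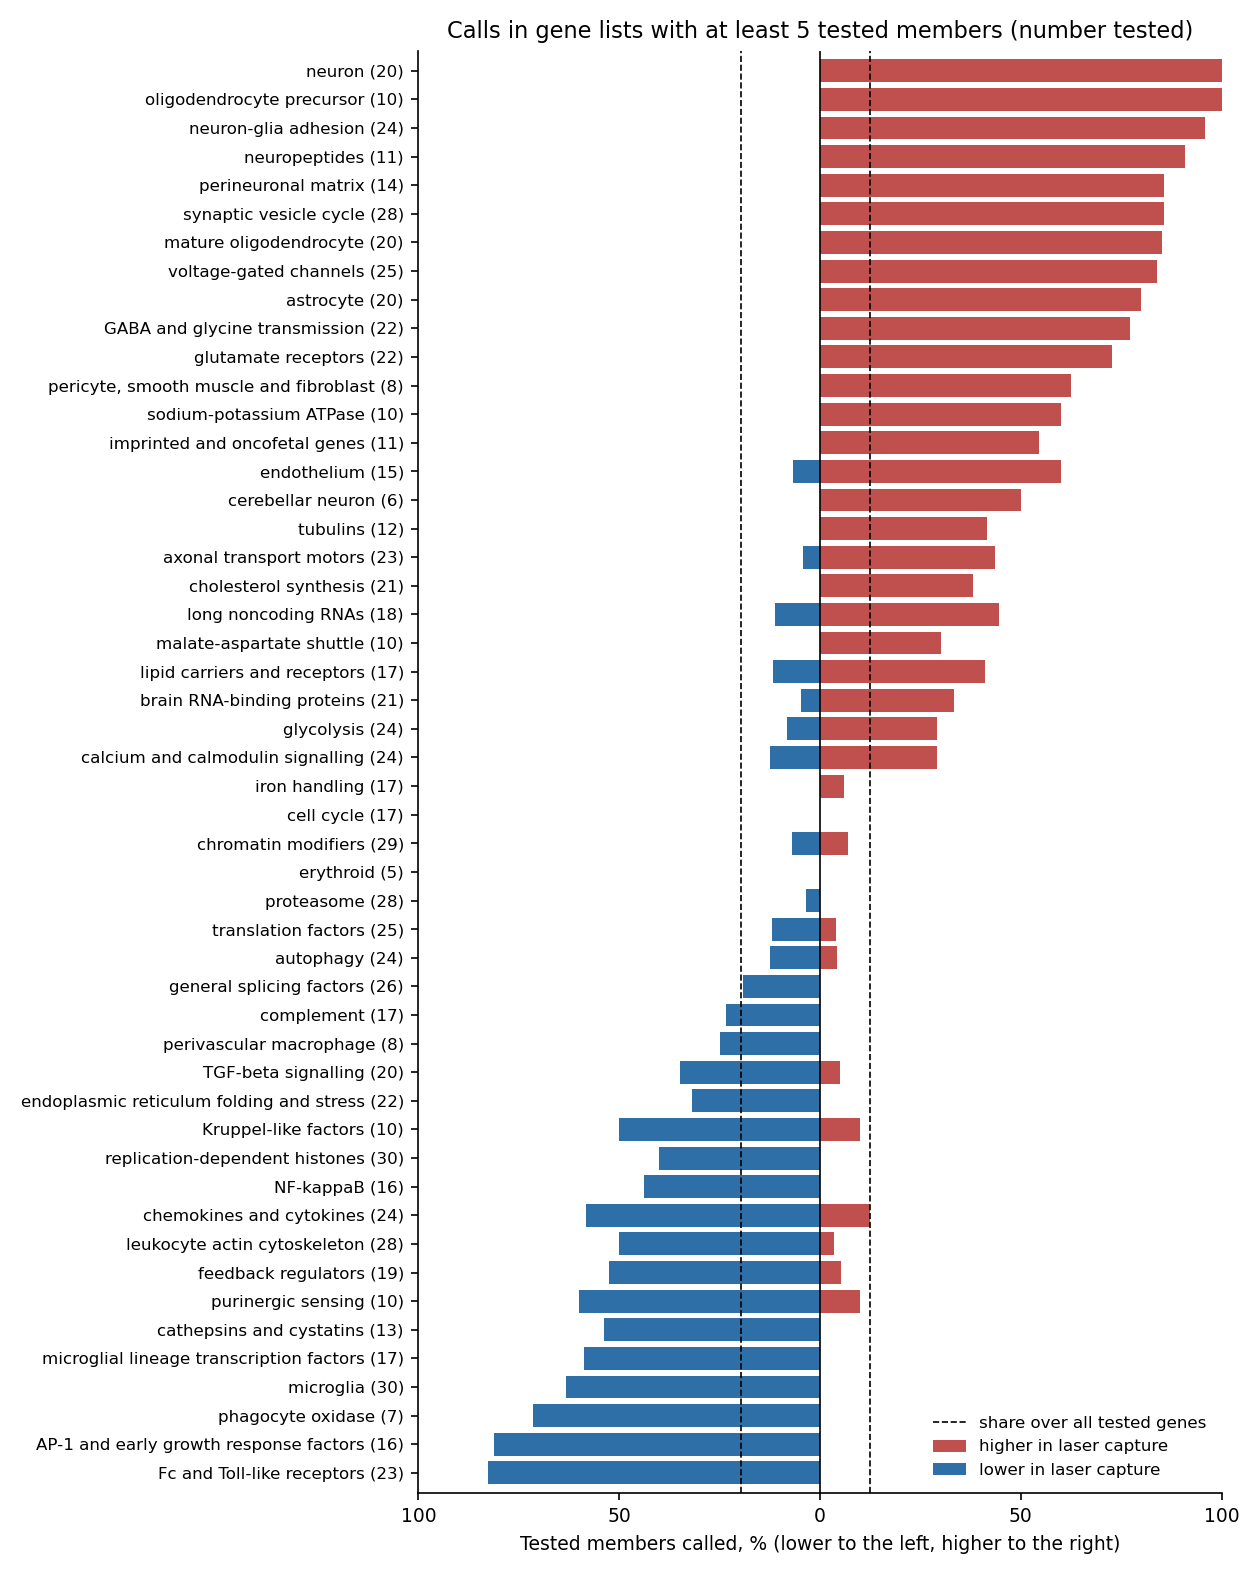
Share of tested members called higher (red, to the right) or lower (blue, to the left) after laser capture, for each gene list with at least 5 tested members, the number tested standing in brackets. Dashed lines mark the shares over all tested genes, 12.5% higher and 19.6% lower. Neuron-glia adhesion (23 of 24 higher) and Fc and Toll-like receptors (19 of 23 lower) stand near the ends.

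Most Fc and Toll-like receptor genes, which sense antibodies and microbial molecules, were lower after laser capture. Of the 23 tested Fc and Toll-like receptor genes 19 were lower (5 to 21 without 1 library, 5 with group variances) and none higher, with a median log2 change of −2.25. Tlr13, an endosomal receptor for bacterial ribosomal RNA (chrX:103338543-103355832), stood apart within the list. It read 19.1, 49.9, 31.6 and 33.7 FPKM after laser capture and 980.5, 832 and 1301 FPKM after sorting (log2 change −4.96, SE 0.37, adjusted p = 0.000179). The groups of Tlr13 were separated by a wide gap, while Tlr9, which senses unmethylated DNA, read 42.5, 137, 106 and 23.5 against 203, 223 and 223 FPKM and did not pass the test (log2 change −1.79, adjusted p = 0.0518). Cd14, the co-receptor for lipopolysaccharide, read 16.5, 136, 48.0 and 27.8 against 340.2, 279.6 and 471 FPKM (log2 change −3.05, adjusted p = 0.0108), again with no overlap. Irak4, a kinase below these receptors, was lower (log2 change −3.41), and the adaptor Myd88 did not pass the test (log2 change −1.12). Under median ratio scaling 10 members were lower, and 18 when only libraries 2 and 4 stood for laser capture. The call of Cd14 ended without the sorted library 3 (adjusted p = 0.055 in limma). Tlr9 became a lower call without laser-captured library 2 or 3 (adjusted p = 0.0257 to 0.0481 in limma).

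Purinergic sensing showed members on both sides. Of 10 tested genes 6 were lower (0 to 6 without 1 library, 1 with group variances) and 1 higher. P2ry12, the ADP receptor that steers microglial processes, read 83.7, 190.1, 214 and 116 FPKM after laser capture and 349, 357 and 351 FPKM after sorting (log2 change −1.32, SE 0.37, adjusted p = 0.0299). P2rx7, an ATP-gated channel, read 55.0, 72.8, 111 and 52.1 against 206, 196 and 213 FPKM (log2 change −1.55, adjusted p = 0.0116). Adora3, an adenosine receptor of microglia, read 18.0, 13.2, 11.4 and 1.37 against 80.0, 72.2 and 102 FPKM (log2 change −3.17, adjusted p = 0.0129). In each of these genes the groups did not overlap, and the shift in P2ry12 was the smallest. Adora1, an adenosine receptor of neurons, was the member called higher and read 2.94, 31.6, 35.8 and 23.9 against 0.958, 1.58 and 0.848 FPKM (log2 change 3.14, adjusted p = 0.0212). Under median ratio scaling the list held 1 lower call, and 6 when only libraries 2 and 4 stood for laser capture. The call of P2ry12 ended without any 1 of the sorted libraries or the laser-captured library 4, those of P2rx7 and Adora1 without any 1 of the sorted libraries, and that of Adora3 without the sorted library 1 or 3 (adjusted p = 0.0537 to 0.106 in limma).

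TGF-beta signalling keeps microglia in their resting identity, and 7 of its 20 tested genes were lower (1 to 9 without 1 library, 4 with group variances) and 1 higher. The receptor Tgfbr1 read 66.2, 70.3, 158 and 60.3 FPKM after laser capture and 224, 242 and 236 FPKM after sorting (log2 change −1.51, adjusted p = 0.021). Lrrc33, which anchors latent TGF-beta on microglia, read 3.66, 15.0, 26.6 and 14.8 against 109, 97.0 and 107 FPKM (log2 change −2.97, SE 0.59, adjusted p = 0.0078). Itgb8, an integrin chain that activates latent TGF-beta, read 6.66, 7.98, 5.97 and 7.20 against 0.0263, 0.0264 and 0.0388 FPKM (log2 change 2.94, SE 0.35, adjusted p = 0.000694). Lrrc33 and Itgb8, which act on the same latent complex, thus lay on opposite sides, each without overlap of the groups, and Tgfbr1 did not overlap either. The ligand Tgfb1 and the signal carriers Smad2, Smad3 and Smad4 did not pass the test, with log2 changes of −1.41, −0.77, −0.86 and −0.58. Under median ratio scaling 2 members were lower and 2 higher, and 10 and 3 when only libraries 2 and 4 stood for laser capture. The call of Tgfbr1 ended without any 1 of the sorted libraries (adjusted p = 0.0801 to 0.087 in limma). Smad3 and Smad4 became lower calls from laser-captured libraries 2 and 4 alone (adjusted p = 0.00597 to 0.00875 in limma).

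The phagocyte oxidase, which makes superoxide, had 5 of 7 tested subunits lower (2 to 6 without 1 library, 0 with group variances). Cybb, the membrane subunit that carries the electrons, read 0.0604, 0.373, 0.176 and 0.0796 FPKM after laser capture and 7.89, 7.58 and 2.81 FPKM after sorting (log2 change −2.51, SE 0.38, adjusted p = 0.00226), low in all libraries but without overlap. Rap1a, a small GTPase found with the complex but also in many other cells, read 39.9, 53.6, 48.8 and 38.0 against 41.9, 46.0 and 43.4 FPKM and did not pass the test (log2 change 0.03, adjusted p = 0.952). Of 28 genes of the leukocyte actin cytoskeleton 14 were lower (3 to 17 without 1 library, 3 with group variances), among them Dock2, a leukocyte activator of Rac (log2 change −2.96, adjusted p = 0.0109), and Capg, a filament-capping protein, which read 0, 0.735, 0 and 0 against 23.5, 24.7 and 28.2 FPKM (log2 change −4.52, adjusted p = 0.000323). The broadly expressed actin genes Actb and Actg1 and the actin-severing Cfl1 did not pass the test, with log2 changes of −0.75, −0.41 and 0.69. Vav3, an exchange factor also made by neurons and glia, was higher (log2 change 2.62, adjusted p = 0.00417), while its leukocyte relative Vav1 was lower (log2 change −2.63, adjusted p = 0.0325). The difference between the relatives was not tested. Median ratio scaling left 2 oxidase and 3 actin genes lower, and the laser-captured libraries 2 and 4 alone gave 6 and 15. The call of Vav1 ended without any 1 of the sorted libraries or the laser-captured library 4 (adjusted p = 0.0744 to 0.104 in limma). Actb became a lower call without laser-captured library 1 or 2, and Actg1 a lower one from laser-captured libraries 2 and 4 alone and without laser-captured library 1, and Cfl1 a higher one under median ratio scaling and with quantile normalization (adjusted p = 0.012 to 0.0477 in limma).

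Transcription factors of the microglial lineage followed the same direction, with 10 of 17 lower (2 to 11 without 1 library, 2 with group variances) and none higher. Sfpi1, which encodes PU.1, read 5.51, 126, 45.5 and 14.5 FPKM after laser capture and 217, 196 and 263 FPKM after sorting (log2 change −3.01, SE 0.91, adjusted p = 0.0382). The laser-captured values of Sfpi1 spanned a wide range, and library 2 came closest to the sorted level. Mef2c, a factor of resting microglia that neurons also make, read 9.25, 26.9, 16.0 and 9.76 against 92.4, 90.4 and 92.1 FPKM (log2 change −2.61, SE 0.44, adjusted p = 0.00361). Sall1, a factor that sets microglial identity, read 56.6, 99.2, 127 and 51.4 against 196, 200.4 and 188 FPKM (log2 change −1.31, adjusted p = 0.0342). Maf did not pass the test (log2 change 0.01), and 3 members of the list were lower under median ratio scaling. The call of Sfpi1 ended without any 1 of the sorted libraries or the laser-captured library 3 or 4, and that of Sall1 without any 1 of the sorted libraries or the laser-captured library 4 (adjusted p = 0.0541 to 0.122 in limma). That of Sfpi1 ended also from laser-captured libraries 2 and 4 alone (adjusted p = 0.0908 in limma).

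Complement genes behaved less uniformly. Only 4 of 17 tested members were lower (2 to 8 without 1 library, 2 with group variances). C1qa read 68.3, 91.1, 54.1 and 49.5 FPKM after laser capture and 313, 220.3 and 299.5 FPKM after sorting (log2 change −2.08, SE 0.33, adjusted p = 0.00251), without overlap. Its partner chains of the C1q molecule did not pass the test: C1qb read 310.4, 662, 561 and 270.2 against 830.4, 657 and 875 FPKM (log2 change −0.89) and C1qc read 162, 413, 421 and 181 against 479.8, 378 and 496 FPKM (log2 change −0.74). In C1qb and C1qc the laser-captured libraries 2 and 3 stood near or within the sorted range, and in C1qa they did not. Cr1l, a membrane inhibitor of complement, was lower (log2 change −2.65, adjusted p = 0.00202). Under median ratio scaling 4 members were lower. C1qb became a lower call without laser-captured library 2 (adjusted p = 0.0455 in limma).

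Cathepsins are proteases of lysosomes, and cystatins inhibit them. Of 13 tested cathepsin and cystatin genes 7 were lower (1 to 9 without 1 library, 0 with group variances). Ctsc, which activates other proteases, read 5.71, 33.1, 80.7 and 26.9 FPKM after laser capture and 294, 269 and 315 FPKM after sorting (log2 change −3.45, SE 0.75, adjusted p = 0.0108). Ctss, the cathepsin of antigen processing, read 63.7, 326, 235 and 119 against 768, 787 and 959.9 FPKM (log2 change −2.42, adjusted p = 0.0119). Ctsd, the aspartic protease found in lysosomes of all brain cells, read 614, 882, 1050.2 and 441 against 1014, 901 and 977 FPKM and did not pass the test (log2 change −0.44, adjusted p = 0.32). The values of Ctsd overlapped between the methods, those of Ctsc and Ctss did not. Of 17 iron-handling genes 1 was called, Steap2, a metalloreductase, which read 8.94, 3.69, 3.46 and 33.7 FPKM after laser capture and was listed at 0 in all 3 sorted libraries. Ferritin heavy and light chains, Fth1 and Ftl1, did not pass the test, with log2 changes of 0.80 and −0.81. When only libraries 2 and 4 stood for laser capture, 5 iron genes were lower and 2 higher, and 9 cathepsin and cystatin genes were lower (4 under median ratio scaling of all libraries). The call of Ctss ended without the sorted library 3, and that of Steap2 without any 1 of the sorted libraries (adjusted p = 0.0561 to 0.062 in limma). Fth1 became a higher call under median ratio scaling, from laser-captured libraries 2 and 4 alone and without laser-captured library 1, and Ftl1 a lower one from laser-captured libraries 2 and 4 alone and without laser-captured library 1 (adjusted p = 0.00461 to 0.0343 in limma).

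Most early response genes were lower after laser capture. They encode AP-1 and EGR transcription factors, which many cells induce within minutes of a stimulus, and regulators that then end the response. Promoter sequences of an early factor (Fos), a feedback phosphatase (Dusp1) and genes called in the opposite direction (Sst, a neuropeptide, and Ptgds) are shown because known response elements can be read in them. Each is the RefSeq window of 300 bases, 250 before to 50 after the annotated start, on the gene's strand of GRCm38.p6, at chr12:85473640-85473939 (plus strand, Fos), chr17:26508423-26508722 (minus, Dusp1), chr16:23890795-23891094 (minus, Sst) and chr2:25469700-25469999 (minus, Ptgds). Capitals mark TATAAA in Fos, the cyclic AMP response element TGACGTCA in Dusp1 and Sst, and the AP-1 motif TGANTCA in Ptgds.
Fos: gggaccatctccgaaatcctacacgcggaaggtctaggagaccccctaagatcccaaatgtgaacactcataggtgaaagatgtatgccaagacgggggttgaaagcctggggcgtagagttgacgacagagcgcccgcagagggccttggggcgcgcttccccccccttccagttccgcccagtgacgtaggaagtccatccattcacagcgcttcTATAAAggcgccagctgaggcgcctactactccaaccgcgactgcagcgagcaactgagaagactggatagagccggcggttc
Dusp1: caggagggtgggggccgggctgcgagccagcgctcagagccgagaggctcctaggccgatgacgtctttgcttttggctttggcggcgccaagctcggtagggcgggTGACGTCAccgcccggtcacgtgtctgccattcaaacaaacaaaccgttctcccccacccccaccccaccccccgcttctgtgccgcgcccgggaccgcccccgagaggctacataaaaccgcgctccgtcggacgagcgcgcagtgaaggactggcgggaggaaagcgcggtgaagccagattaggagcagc
Sst: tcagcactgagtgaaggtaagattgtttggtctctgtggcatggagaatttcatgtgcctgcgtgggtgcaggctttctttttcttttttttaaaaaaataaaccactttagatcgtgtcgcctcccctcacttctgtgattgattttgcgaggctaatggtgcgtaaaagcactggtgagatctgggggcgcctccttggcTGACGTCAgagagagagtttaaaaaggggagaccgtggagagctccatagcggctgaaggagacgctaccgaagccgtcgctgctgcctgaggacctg
Ptgds: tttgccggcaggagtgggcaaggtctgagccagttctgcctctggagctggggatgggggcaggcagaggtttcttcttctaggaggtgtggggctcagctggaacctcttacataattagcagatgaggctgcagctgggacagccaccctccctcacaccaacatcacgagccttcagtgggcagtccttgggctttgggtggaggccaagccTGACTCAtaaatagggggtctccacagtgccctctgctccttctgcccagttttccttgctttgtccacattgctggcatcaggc
Counted from 1 at the 5′ end of each window, TATAAA begins at base 218 in Fos, TGACGTCA at base 108 in Dusp1 and at base 203 in Sst, and the AP-1 motif at base 216 in Ptgds. Searched on both strands, TGACGTCA stands in 507 of 27025 RefSeq windows of this length (1.88%), TGANTCA in 2144 (7.93%) and TATAAA in 3827 (14.2%). None of the other motifs searched was found in these 4 windows, so the marked ones overlap with no other. The same 8 letters of the cyclic AMP element thus stand before a gene called lower and a gene called higher, and a match describes letters, not binding. Only 9849 of the tested genes (73.5%) matched a window, under the 80% needed, so no motif share is given over called genes.

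Of 16 tested AP-1 and early growth response genes 13 were lower (13 to 14 without 1 library, 11 with group variances) and none higher, with a median log2 change of −2.68. Fos (chr12:86814840-86818223 in mm9) read 0, 3.63, 0.642 and 6.85 FPKM after laser capture and 156, 125 and 194 FPKM after sorting (log2 change −5.82, SE 0.73, adjusted p = 0.000953). Junb, its partner subunit, read 0.166, 4.85, 5.30 and 0.666 against 134, 101 and 152 FPKM (log2 change −5.46, SE 0.69, adjusted p = 0.000953). Egr1, a zinc finger factor of the same early wave, read 18.5, 13.2, 2.89 and 69.5 against 345, 258 and 390.2 FPKM (log2 change −4.30, SE 0.85, adjusted p = 0.00757). In each of these genes the sorted values lay above all laser-captured ones, and the laser-captured library 4 was the highest of its group for Fos and Egr1. Not every early gene took part. Nr4a1, an orphan nuclear receptor, read 0.0101, 11.6, 2.76 and 4.33 against 0.529, 0.705 and 1.25 FPKM (log2 change 1.15), and Myc read 38.9, 11.6, 52.4 and 5.15 against 42.0, 45.9 and 41.9 FPKM (log2 change −1.14). Neither passed the test, and their groups overlapped. The count of lower calls in the list was 13 under median ratio scaling and 15 when only libraries 2 and 4 stood for laser capture, with 1 higher. Nr4a1 became a higher call from laser-captured libraries 2 and 4 alone and without laser-captured library 1, and Myc a lower one from laser-captured libraries 2 and 4 alone (adjusted p = 0.00663 to 0.0301 in limma).

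Feedback regulators of this response had 10 of 19 tested members lower (5 to 13 without 1 library, 5 with group variances) and 1 higher. Dusp1, a phosphatase that switches off MAP kinases (chr17:26642535-26645464), read 6.25, 13.7, 8.19 and 10.3 FPKM after laser capture and 238, 217 and 255 FPKM after sorting (log2 change −4.53, SE 0.37, adjusted p = 0.000207). Zfp36, which leads cytokine mRNA to decay, read 22.5, 26.0, 48.6 and 14.8 against 374, 273 and 398 FPKM (log2 change −3.70, SE 0.43, adjusted p = 0.000681). Btg2, an inhibitor of proliferation, read 0.548, 3.78, 2.81 and 0.541 against 44.4, 30.8 and 47.2 FPKM (log2 change −4.00, SE 0.56, adjusted p = 0.00155). All 3 genes had wide gaps between the methods. Dusp10 and Dusp16, other phosphatases of the same family, did not pass the test, with log2 changes of 0.17 and −0.31. Tob1, an antiproliferative protein related to Btg2, was the member called higher and read 6.10, 14.6, 8.35 and 20.1 against 2.10, 2.09 and 2.16 FPKM (log2 change 1.96, adjusted p = 0.0212). Among Kruppel-like factors Klf2, which quiets macrophages, was lower (log2 change −3.77, adjusted p = 0.00068) and Klf9, a factor of mature neurons and oligodendrocytes, higher (log2 change 2.35, adjusted p = 0.00705). Median ratio scaling left 6 feedback regulators and 1 Kruppel-like factor lower. The call of Tob1 ended without any 1 of the sorted libraries, and that of Klf9 without the sorted library 2 (adjusted p = 0.0512 to 0.0961 in limma). Dusp16 became a lower call without laser-captured library 1 (adjusted p = 0.0459 in limma).

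Of 24 tested chemokine and cytokine genes 14 were lower (10 to 15 without 1 library, 9 with group variances) and 3 higher. Ccl2, which draws monocytes, read 0, 0.114, 1.55 and 0 FPKM after laser capture and 47.1, 27.5 and 58.6 FPKM after sorting (log2 change −5.06, SE 0.53, adjusted p = 0.000458). Ccl12, a near neighbour of Ccl2 in the chemokine cluster, read 9.67, 1.95, 0.905 and 7.31 against 116, 98.6 and 152 FPKM (log2 change −4.68, SE 0.66, adjusted p = 0.00161). Cxcl10, a target of interferon, was listed at 0 in all 4 laser-captured libraries and read 9.64, 16.4 and 14.2 FPKM after sorting (adjusted p = 0.000323). Cxcl10 passed the low-value filter through the sorted libraries alone, so a lower level was built in. Il6 and Tnf were lower as well (log2 changes −2.88 and −2.92). Ccl9 did not share this pattern. It ranged from 0.800 FPKM in the laser-captured library 1 to 246 FPKM in library 2, which lay above the sorted values of 84.1, 59.6 and 78.7 FPKM (log2 change −1.79, adjusted p = 0.355). The members called higher are ligands that neurons, glia or vessels make: Cx3cl1, the neuronal ligand of Cx3cr1, read 27.1, 28.4, 17.9 and 43.6 against 0.0484, 0.102 and 0.191 FPKM (log2 change 4.70, SE 0.45, adjusted p = 0.000351), and Cxcl12 and Cxcl14 had log2 changes of 2.62 and 2.09. All 3 ligands had passed the low-value filter through the laser-captured libraries alone, so a higher level was built in. Of 16 NF-kappaB genes 7 were lower (0 to 7 without 1 library, 1 with group variances), led by Nfkbiz (log2 change −2.95, adjusted p = 0.0126), and 1 under median ratio scaling. The chemokine list then held 11 lower and 2 higher calls. The calls of Tnf and Nfkbiz ended without any 1 of the sorted libraries, that of Cxcl12 without any 1 of the sorted libraries or the laser-captured library 3, and that of Cxcl14 without any 1 of the sorted libraries or the laser-captured library 2, 3 or 4 (adjusted p = 0.0523 to 0.129 in limma). From laser-captured libraries 2 and 4 alone Tnf was not called either (adjusted p = 0.084 in limma).

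Histone genes were lower in part. Of 30 tested replication-dependent histone genes, whose transcripts end in a stem-loop in place of a poly(A) tail, 12 were lower (7 to 22 without 1 library, 8 with group variances) and none higher. Hist1h1c, a linker histone (chr13:23830676-23832235), read 3.12, 1.66, 1.90 and 9.52 FPKM after laser capture and 210.4, 179 and 249 FPKM after sorting (log2 change −5.63, SE 0.55, adjusted p = 0.000373). Hist1h3d read 0.484, 0.241, 0.275 and 2.39 against 78.0, 104 and 80.9 FPKM (log2 change −5.71, SE 0.50, adjusted p = 0.000275), also without overlap. Hist1h4d did not pass the test and read 1090.2, 177, 346 and 41.5 against 583, 368 and 735 FPKM (log2 change −1.23, adjusted p = 0.351). The laser-captured library 1 was the highest of all 7 libraries for Hist1h4d and library 4 the lowest. The histone genes are close copies of each other, so how fragments were split among them is uncertain. With the laser-captured libraries 2 and 4 only, 26 of the 30 genes were lower, and 8 were lower under median ratio scaling. Hist1h4d became a lower call from laser-captured libraries 2 and 4 alone (adjusted p = 0.0312 in limma).

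Most tested genes of nerve cell signalling were higher. Of 28 tested synaptic vesicle genes 24 were higher, of 25 voltage-gated channel genes 21, of 22 genes of GABA and glycine transmission 17 and of 22 glutamate receptor genes 16. None of these was lower. Through the laser-captured libraries alone, 15, 23, 19 and 19 members passed the low-value filter, so a higher level was built into their selection. Under median ratio scaling the counts of higher calls were 25, 21, 17 and 16, with group variances 16, 11, 11 and 10, and without 1 library in turn 18 to 25, 15 to 23, 12 to 20 and 10 to 21.

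Syn1, which tethers vesicles to actin, read 42.3, 78.4, 74.9 and 138 FPKM after laser capture and 0.0242, 0.118 and 0.0640 FPKM after sorting (log2 change 6.18, SE 0.49, adjusted p = 0.000188). Vamp2, the vesicle SNARE of neurons, did not pass the test and read 46.8, 208, 236 and 263 against 88.2, 80.4 and 94.0 FPKM (log2 change 0.84, adjusted p = 0.306). The 3 laser-captured libraries above the sorted range of Vamp2 were 2, 3 and 4. Scn1a, a sodium channel of inhibitory neurons, read 28.5, 161, 91.1 and 195 against 0.0495, 0.00688 and 0.0732 FPKM (log2 change 6.53, SE 0.68, adjusted p = 0.000458). Slc6a9, a glycine transporter of astrocytes, read 55.5, 103, 93.8 and 116 against 2.95, 4.24 and 4.28 FPKM (log2 change 4.23, SE 0.40, adjusted p = 0.000335). Glycine is a main inhibitory transmitter of the brainstem. Glra1, the adult glycine receptor chain, read 9.34, 10.6, 17.3 and 9.58 FPKM after laser capture and was listed at 0 in all 3 sorted libraries (adjusted p = 0.000608). Shank1, a scaffold of excitatory synapses, had the largest log2 change among glutamate receptor genes, at 6.34, whereas the scaffold Dlg4 read 35.0, 107, 72.8 and 179 against 41.4, 43.5 and 37.8 FPKM and did not pass the test (log2 change 1.02, adjusted p = 0.175). Vamp2 and Dlg4 became higher calls from laser-captured libraries 2 and 4 alone and without laser-captured library 1 (adjusted p = 0.00277 to 0.0221 in limma).

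Neuropeptides differed in number detected. Of the 24 listed genes 11 were tested, and 10 of those were higher (7 to 10 without 1 library, 7 with group variances). All 11 had passed the low-value filter through the laser-captured libraries alone, so a higher level was built in. Sst, somatostatin (chr16:23889667-23890930), read 151, 146, 245 and 451 FPKM after laser capture and was listed at 0 in all 3 sorted libraries (adjusted p = 7.56e-05). The granin Scg2 read 114, 127, 170.3 and 212 against 0.0296, 0.00723 and 0.0325 FPKM (log2 change 7.22, SE 0.40, adjusted p = 4.82e-05). Cck, cholecystokinin, was not tested because only the laser-captured libraries 2 and 4 reached the filter, at 19.2 and 176 FPKM. Cartpt was found in the laser-captured library 3 at 42.0 FPKM and at 0.384 FPKM or less in the other 6 libraries. Peptides of single neuron groups were thus uneven between laser-captured libraries, while Sst and Scg2 were present in each.

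Genes of contact between neurons and glia were higher almost as a whole. Of 24 tested adhesion genes 23 were higher (17 to 23 without 1 library, 16 with group variances), with a median log2 change of 4.42, and 19 had passed the filter through the laser-captured libraries alone. Ank3, ankyrin G of nodes and axon initial segments, read 60.9, 77.3, 88.2 and 116 FPKM after laser capture and 0.0121, 0.0511 and 0.0148 FPKM after sorting (log2 change 6.36, SE 0.41, adjusted p = 7.91e-05). Cntn1, a contactin of axons and oligodendrocytes, read 27.5, 82.3, 90.2 and 169 against 0.0133, 0.0657 and 0.127 FPKM (log2 change 6.19, SE 0.62, adjusted p = 0.000414). Cadm1 was the member not called, at 102, 90.7, 54.3 and 106 against 138, 126 and 143 FPKM (log2 change −0.66, adjusted p = 0.159). Of 14 genes of the perineuronal matrix 12 were higher (8 to 12 without 1 library, 8 with group variances), and 12 had passed the filter through the laser-captured libraries alone. Sparcl1, an astrocyte protein that promotes synapses, read 177, 241, 279.9 and 323 against 0.0520, 0.0559 and 0.487 FPKM (log2 change 7.73, SE 0.39, adjusted p = 3.15e-05). Its relative Sparc, which microglia also make, read 408, 712, 742 and 729 against 1075, 923 and 1099 FPKM and did not pass the test (log2 change −0.71, adjusted p = 0.0842). For Sparc every laser-captured value lay below every sorted one, and for Sparcl1 every one lay above. Sparc became a lower call without laser-captured library 1 (adjusted p = 0.037 in limma). The difference between the relatives was not tested.

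Several gene families were split between isoforms of nerve tissue and isoforms used by most cells. Among beta chains of the sodium pump, the glial Atp1b2 read 290.1, 521, 722 and 673 FPKM after laser capture and 0, 0.425 and 1.33 FPKM after sorting (log2 change 8.45, SE 0.47, adjusted p = 5.08e-05), and Atp1b3 read 68.3, 27.7, 18.0 and 18.0 against 34.4, 31.9 and 36.0 FPKM (log2 change −0.27, adjusted p = 0.715). The values of Atp1b3 overlapped between the methods and those of Atp1b2 did not. Among tubulins, the isotype Tubb4a, mutated in a myelin disorder, read 482, 1370.0, 1231 and 1188 against 3.10, 4.85 and 3.70 FPKM (log2 change 7.68, SE 0.43, adjusted p = 5.08e-05), and the isotype of most cells, Tubb5, read 586, 146, 114 and 86.0 against 141, 118 and 150.1 FPKM (log2 change 0.33, adjusted p = 0.713). The laser-captured library 1 was the highest of all 7 libraries for Tubb5. Kinesin heavy chains showed the same arrangement. Kif5a, the neuronal chain, read 48.6, 49.0, 74.4 and 103 against 0.0577, 0.0130 and 0.0583 FPKM (log2 change 5.99, SE 0.45, adjusted p = 0.00015), and Kif5b, the chain of most cells, read 109, 157, 189 and 160.2 against 108, 114 and 107 FPKM (log2 change 0.46, adjusted p = 0.263). Kif5b became a higher call under median ratio scaling, from laser-captured libraries 2 and 4 alone and without laser-captured library 1 (adjusted p = 0.0351 to 0.0488 in limma).

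Elongation factor Eef1a1 was not called (log2 change −0.10), and Eef1a2, the form of neurons and muscle, read 2.85, 56.7, 10.4 and 43.6 FPKM after laser capture and 0.0243, 0 and 0.00993 FPKM after sorting (log2 change 4.18, adjusted p = 0.012). In glycolysis 7 of 24 tested genes were higher (4 to 10 without 1 library, 5 with group variances) and 2 lower. Aldoc, the aldolase of astrocytes, and Eno2, the neuronal enolase, had log2 changes of 7.66 and 6.17, while their relatives Aldoa and Eno1 did not pass the test (1.03 and 1.10), though all 4 laser-captured values lay above the sorted ones in each. Aldoa became a higher call under median ratio scaling, from laser-captured libraries 2 and 4 alone and without laser-captured library 3, and Eno1 a higher one under median ratio scaling, with quantile normalization and without laser-captured library 1 or 2 (adjusted p = 0.00557 to 0.0399 in limma). Hk2, the inducible hexokinase, read 5.33, 4.02, 12.6 and 1.57 against 28.8, 27.4 and 25.4 FPKM (log2 change −2.29, adjusted p = 0.022), and Pfkfb3, which drives glycolysis in activated cells, was lower too (log2 change −2.28, adjusted p = 0.0282). Both lower calls were lost under median ratio scaling, where 12 glycolysis genes were higher. The calls of Eef1a2 and Hk2 ended without any 1 of the sorted libraries, and that of Pfkfb3 without any 1 of the sorted libraries or the laser-captured library 3 or 4 (adjusted p = 0.051 to 0.107 in limma). From laser-captured libraries 2 and 4 alone that of Pfkfb3 ended too (adjusted p = 0.0875 in limma). None of the differences between relatives named for the sodium pump, tubulins, kinesins, elongation factors and glycolysis was tested.

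Transport, calcium and RNA-binding genes gave further splits. Of 23 motor genes 10 were higher (7 to 12 without 1 library, 7 with group variances) and 1 lower. Kif1a, which carries vesicle precursors along axons, read 105, 101, 143 and 182 FPKM after laser capture and 0.162, 0.218 and 0.143 FPKM after sorting (log2 change 6.79, SE 0.40, adjusted p = 5.92e-05), and its relative Kif1c read 5.66, 4.02, 8.19 and 8.45 against 5.79, 5.18 and 4.21 FPKM (log2 change 0.28, adjusted p = 0.648). Dynein light chains differed likewise: Dynll2 was higher (log2 change 3.03, adjusted p = 0.00138), and Dynll1 read 47.4, 36.2, 29.8 and 56.4 against 43.1, 33.4 and 46.2 FPKM (log2 change 0.03, adjusted p = 0.964). Values of Kif1c and Dynll1 overlapped between the methods. Kif1b, another relative of Kif1a and the most abundant listed motor gene, was higher. It read 240, 354, 202 and 414 FPKM after laser capture and 35.5, 39.7 and 42.9 FPKM after sorting (log2 change 2.86, SE 0.34, adjusted p = 0.000694). In the calcium list 7 of 24 were higher (3 to 9 without 1 library, 3 with group variances) and 3 lower. Atp2b2, a calcium pump of neurons, read 38.4, 42.4, 51.4 and 82.2 against 0.451, 0.425 and 0.525 FPKM (log2 change 5.16, SE 0.44, adjusted p = 0.000241), and Itpr2, the inositol trisphosphate receptor of glia and many other cells, read 75.6, 65.9, 62.9 and 46.2 against 150.1, 172 and 152 FPKM (log2 change −1.34, SE 0.30, adjusted p = 0.012). Both pairs of groups were apart, in opposite directions. Of 21 brain RNA-binding protein genes 7 were higher (6 to 8 without 1 library, 5 with group variances), such as Msi1, a protein of neural precursors and glia listed at 0 after sorting (30.0, 25.1, 13.9 and 15.3 FPKM after laser capture, adjusted p = 0.000439). Mbnl1, a splicing regulator, was the lower one at 8.75, 43.5, 33.9 and 35.4 against 105, 102 and 101 FPKM (log2 change −1.93, adjusted p = 0.0306). Tubulin, malate-aspartate shuttle and lipid carrier genes counted 5 of 12, 3 of 10 and 7 of 17 higher, with 2 lipid carrier genes lower. Through the laser-captured libraries alone, 6 motor, 6 calcium, 6 RNA-binding and 7 lipid carrier genes had passed the low-value filter. A higher level was built into their selection. The calls of Itpr2 and Mbnl1 ended without any 1 of the sorted libraries (adjusted p = 0.0614 to 0.106 in limma). Both calls also ended under median ratio scaling, which left 1 calcium gene lower, 0 motor genes and 0 RNA-binding genes.

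**Figure D3:**
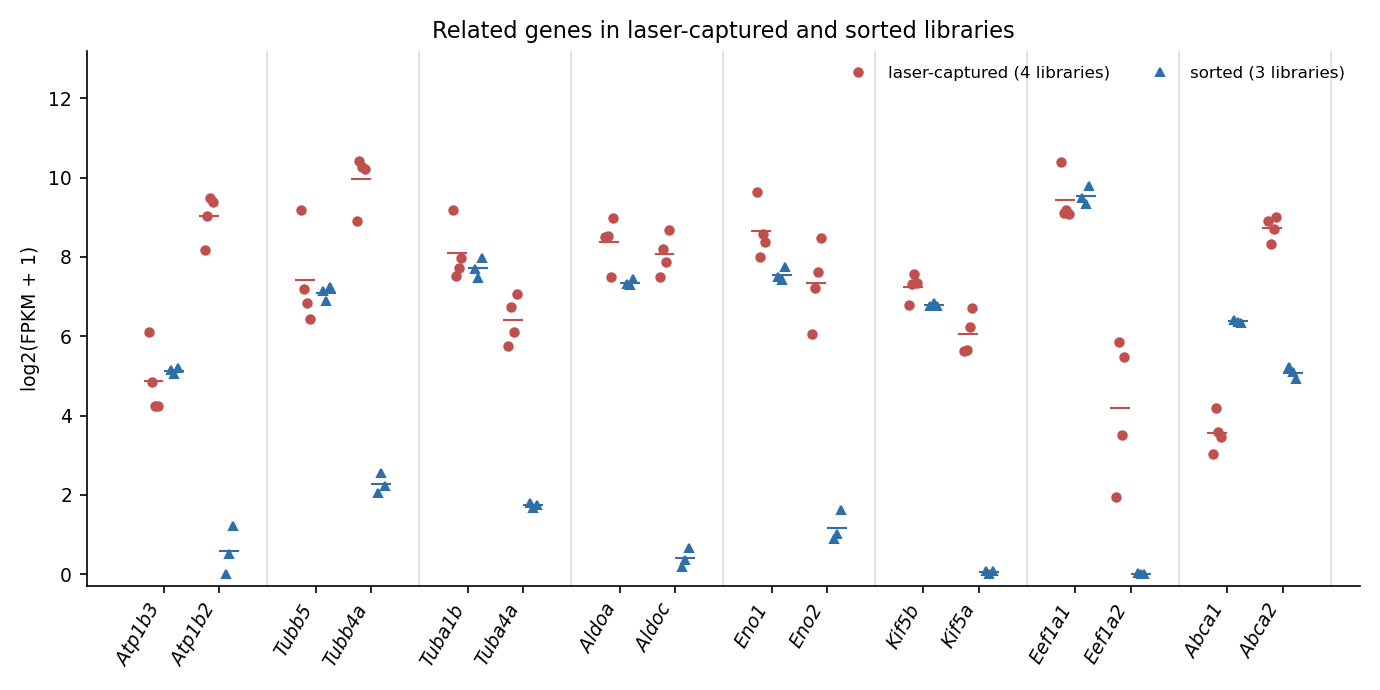
Levels on the log2(FPKM + 1) scale of 8 pairs of related genes in each library, red circles for the 4 laser-captured and blue triangles for the 3 sorted libraries, with short lines at the group means. In Kif5b and Tubb5 the groups lie close together or overlap, whereas Atp1b2, Kif5a and Tubb4a lie far higher after laser capture, and Abca1 lies lower while Abca2 lies higher.

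Lipid genes were split too. Of 21 tested genes of cholesterol synthesis and uptake 8 were higher (2 to 11 without 1 library, 4 with group variances) and none lower. Sqle, squalene epoxidase, read 12.7, 19.4, 34.1 and 27.3 FPKM after laser capture and 1.47, 1.60 and 1.27 FPKM after sorting (log2 change 3.23, SE 0.47, adjusted p = 0.00178). The lowest laser-captured value of Sqle lay above its highest sorted value. The count was 9 under median ratio scaling. Abca1, which exports cholesterol from macrophages, read 7.25, 17.3, 10.9 and 9.99 against 83.9, 81.7 and 80.4 FPKM (log2 change −2.81, SE 0.39, adjusted p = 0.00145), and Abca2, a transporter of oligodendrocytes, read 482, 320.1, 413 and 518 against 36.2, 33.1 and 29.3 FPKM (log2 change 3.66, SE 0.29, adjusted p = 0.000189). Apoe, made by astrocytes and microglia, read 72.5, 699, 332 and 415 against 245, 286 and 297 FPKM and did not pass the test (log2 change 0.07, adjusted p = 0.943). Plin2, the coat of lipid droplets, was lower (log2 change −2.17, adjusted p = 0.0142). The call of Plin2 ended without any 1 of the sorted libraries (adjusted p = 0.0593 to 0.0792 in limma). Apoe became a higher call from laser-captured libraries 2 and 4 alone (adjusted p = 0.0407 in limma).

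Genes that all cells share mostly stayed below the threshold. Of 28 proteasome genes 1 was called, Psmb8, a subunit of the immunoproteasome, at 1.85, 0.221, 0.800 and 0.630 FPKM after laser capture and 29.9, 29.3 and 32.3 FPKM after sorting (log2 change −4.14, SE 0.45, adjusted p = 0.000519). The constitutive subunit it replaces, Psmb5, read 67.9, 31.8, 20.2 and 7.84 against 37.3, 29.6 and 40.5 FPKM and did not pass the test (log2 change −0.52, adjusted p = 0.576). Of 25 translation factors 3 were lower and 1 higher, of 24 autophagy genes 3 and 1, and of 29 chromatin modifiers 2 and 2. These shares lie at or under the shares of all tested genes in both directions. In the endoplasmic reticulum list 7 of 22 were lower (1 to 10 without 1 library, 1 with group variances), including the chaperone Hspa5 and the stress kinase Ern1 (log2 changes −1.92 and −1.64), and 1 under median ratio scaling. The call of Ern1 ended without any 1 of the sorted libraries or the laser-captured library 1 or 2 (adjusted p = 0.0505 to 0.166 in limma). Of 26 general splicing factors 5 were lower (0 to 10 without 1 library, 2 with group variances) and under that scaling 0. With the laser-captured libraries 2 and 4 only, the lower calls were 13 splicing, 7 proteasome, 6 translation, 4 autophagy, 6 chromatin and 10 endoplasmic reticulum genes. Failure to pass the test does not show equal levels, given the spread among laser-captured libraries.

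Few genes had a difference bounded on both sides, on the scale as deposited. For 219 genes (1.63% of those tested) the 95% confidence interval of the log2 difference, not adjusted for the number of genes, lay between −1 and 1. Which genes meet this bound depends on scaling: median ratio scaling moved the median log2 change of all tested genes from −0.60 to −0.12. The most abundant of the 219 genes were Gapdh, Rpl21, Rpl11, Rps29, Eef1a1, Leng8, Aff4 and Rps12. Gapdh, the glycolytic enzyme often used as a reference, read 4762, 2711, 2838 and 3325 FPKM after laser capture and 2765, 2349 and 2913 FPKM after sorting (log2 change 0.32, SE 0.24, adjusted p = 0.34). Rpl11, a ribosomal protein, read 1569, 1456, 754 and 1096 against 993, 854 and 1221 FPKM (log2 change 0.21, adjusted p = 0.619). Both overlapped between the methods. Gapdh became a higher call under median ratio scaling (adjusted p = 0.0485 in limma).

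Long noncoding RNAs lay on both sides, with 8 of 18 higher (5 to 9 without 1 library, 5 with group variances) and 2 lower. Of these 18 genes 6 had passed the low-value filter through the laser-captured libraries alone, Meg3 and Snhg11 among them. A higher level was built into their selection. Meg3, an imprinted RNA of neurons, read 216, 33.5, 40.0 and 210.1 FPKM after laser capture and 0, 0 and 0.153 FPKM after sorting (log2 change 6.42, SE 0.77, adjusted p = 0.000753). Snhg11, another neuronal RNA, read 33.6, 55.4, 27.8 and 92.6 against 0.0182, 0 and 0.102 FPKM (log2 change 5.53, SE 0.52, adjusted p = 0.000326). Malat1, an abundant nuclear RNA, read 349.9, 951, 1094 and 964 against 415, 351 and 383 FPKM and did not pass the test (log2 change 1.01, adjusted p = 0.0931). Library 1 of laser capture lay just below the sorted range for Malat1 and the other 3 lay above it. Snhg1 and Snhg12, hosts of small nucleolar RNAs, were lower (log2 changes −1.19 and −1.68), and neither call held under median ratio scaling, which left 0 lower. The calls of Snhg1 and Snhg12 ended without any 1 of the sorted libraries (adjusted p = 0.106 to 0.138 in limma). Malat1 became a higher call under median ratio scaling, from laser-captured libraries 2 and 4 alone and without laser-captured library 1 (adjusted p = 0.00123 to 0.0206 in limma).

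Gene structure, which the choice of libraries did not use, varied with the direction of the calls. Among 2490 tested genes that span under 5 kb of the genome, 6.95% were higher and 30.4% lower after laser capture. Among 160 genes that span 500 kb or more, 57.5% were higher and 8.75% lower, with a median log2 change of 2.79. Between these ends the higher share grew at each step, and the lower share fell at each step but that from 50-100 kb (14.7%) to 100-200 kb (15.2%). Of the longest genes 138 stood in none of the lists, and 73 of those were higher and 14 lower. The 160 genes had a median of 0.0619 FPKM after sorting and 15.0 FPKM after laser capture. Many thus passed the low-value filter through the laser-captured libraries alone, so a higher level was built into their selection. The lists do not hold every nerve cell gene, and whether span or cell type goes with the calls was not tested. Nrxn3, a neurexin of presynaptic terminals, read 49.6, 57.0, 44.8 and 58.6 FPKM after laser capture and 0.0275, 0 and 0.117 FPKM after sorting (log2 change 5.67, SE 0.39, adjusted p = 9.92e-05). Lrp1b, a large endocytic receptor, read 24.5, 11.5, 13.2 and 24.2 against 0.140, 0 and 0.0369 FPKM (log2 change 4.12, adjusted p = 0.00057). Fhit, a hydrolase encoded across a fragile site, went the other way and read 0, 0.542, 1.24 and 2.37 against 42.4, 34.8 and 36.8 FPKM (log2 change −4.39, SE 0.52, adjusted p = 0.000694). None of the 3 overlapped between the methods, and they were chosen after their values were seen. By transcript length, 4.08% of 1273 genes with a longest GENCODE transcript under 1000 bases were higher and 34.6% lower, against 24.0% and 10.7% of 1912 genes of 6000 bases or more. Span and transcript length go together (Pearson r = 0.747 across genes, which are not independent replicates). Their correlations with the log2 change were 0.255 and 0.24, and that of GC content was 0.086.

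**Figure D4:**
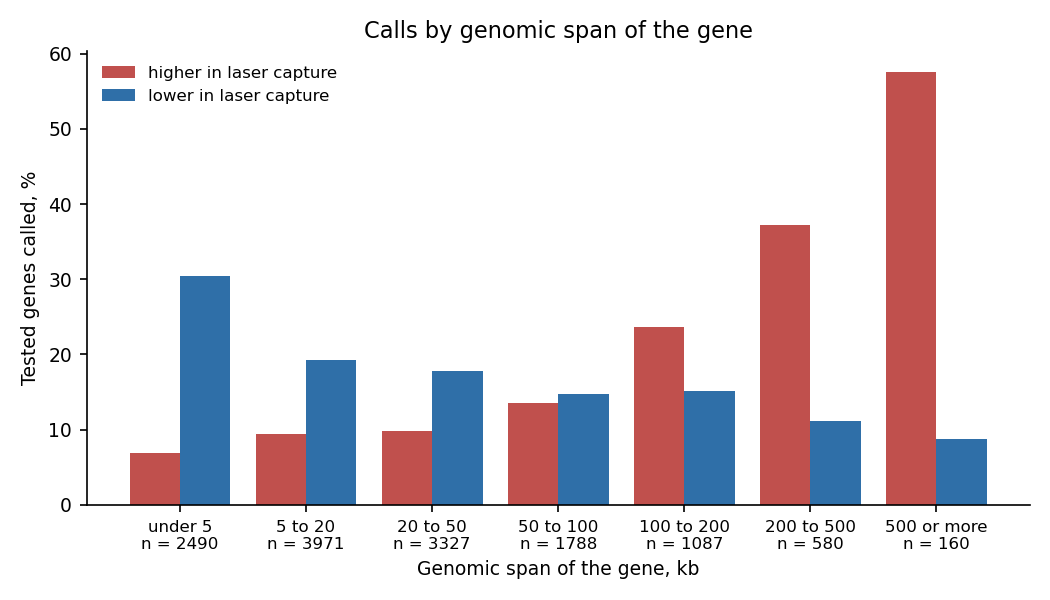
Percent of tested genes called higher (red) or lower (blue) after laser capture, by the genomic span of the gene in kb, with the number of genes under each bin. The red share grows from 6.95% under 5 kb to 57.5% at 500 kb or more, and the blue share falls from 30.4% to 8.75%. Many genes of the longest bin passed the low-value filter through the laser-captured libraries alone.

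By annotated kind of gene, protein-coding genes had 13.4% higher and 17.5% lower calls of 11875 tested. Of 36 small nucleolar RNA genes 19 were lower and 1 higher, with a median log2 change of −4.36, and of 645 processed pseudogenes 263 were lower and 10 higher. Values of small RNAs and pseudogenes depend on how fragments that map to several places were counted, which is not given in the sources used here.

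Within the laser-captured group, libraries 1 and 3 stood apart. Hba-x, an embryonic alpha-globin, read 1853, 2.16, 660.5 and 0.225 FPKM in the 4 laser-captured libraries, and Hbb-bh1, an embryonic beta-globin, read 646, 0.598, 626 and 0.141 FPKM. Both were listed at 0 in all 3 sorted libraries. The summed level of 9 erythroid genes was 3652, 40.9, 1819 and 0.449 FPKM in the laser-captured and 2.61 to 4.03 FPKM in the sorted libraries. The proliferation marker Mki67 read 202, 12.4, 46.6 and 0.0785 FPKM after laser capture and 4.45, 2.06 and 2.99 FPKM after sorting, and Top2a, a topoisomerase of dividing cells, read 251, 2.23, 43.9 and 2.22 against 4.36, 1.79 and 3.20 FPKM. Library 1 was the highest for both proliferation genes and library 3 the next. None of 17 tested cell-cycle genes was called with limma and 0 had an unadjusted p under 0.05, while 5 were called lower with the laser-captured libraries 2 and 4 only.

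Imprinted and fetal growth genes summed to 2549, 230.0, 417 and 282 FPKM after laser capture and 16.3, 20.2 and 19.1 FPKM after sorting, with library 1 far above the rest. Of 11 tested members 6 were higher (4 to 7 without 1 library, 3 with group variances), and 7 had passed the filter through the laser-captured libraries alone. Igf2, a fetal growth factor also made by the choroid plexus and meninges, read 450.1, 43.0, 29.8 and 26.8 FPKM after laser capture and 0, 0.0941 and 0.00718 FPKM after sorting (log2 change 5.96, SE 0.96, adjusted p = 0.00291). Mest read 925, 98.5, 123 and 65.7 against 4.08, 4.62 and 5.21 FPKM (log2 change 4.89, SE 0.85, adjusted p = 0.00409). H19, the RNA next to Igf2, read 299, 0.117, 49.5 and 0.121 FPKM after laser capture and was listed at 0 in all 3 sorted libraries. With the laser-captured libraries 2 and 4 only, 5 members were higher. Among Hox genes, which mark the axial position of hindbrain and spinal cord cells, none of 21 passed the filter. Their summed level was 108, 82.7, 21.1 and 4.54 FPKM after laser capture and 0.0563, 0.189 and 0.0535 FPKM after sorting, and Hoxb6 alone read 33.6, 30.4, 0.136 and 0.0731 FPKM after laser capture.

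The genes that varied most on the log2 scale among laser-captured libraries were Hba-x, Hist1h2bm, Fance, Clec4a2, Clybl, Tap2, Ccdc92 and Phf5a. Hist1h2bm read 585, 0.0703, 193 and 0 FPKM after laser capture and 6.82, 3.07 and 9.34 FPKM after sorting. Clec4a2, a lectin of myeloid cells, read 0.219, 168, 159 and 0.394 against 226, 206 and 250.4 FPKM. For Y chromosome genes, Uty read 15.6, 15.0, 0.286 and 0.0277 FPKM after laser capture and Kdm5d read 3.26, 36.5, 5.96 and 0 FPKM. Of these genes, library 1, labelled female, held both, and library 3, also labelled female, held a clear level of Kdm5d alone. How fragments that map to several places were counted is not given, so these values do not settle the sex of the libraries. Ddx3y, an RNA helicase gene of the Y chromosome, read 0.198, 4.41, 0 and 0 against 0.0122, 7.55 and 0.00341 FPKM and followed the labels. Whether RNA of other tissue entered these libraries was not tested.

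**Figure D5:**
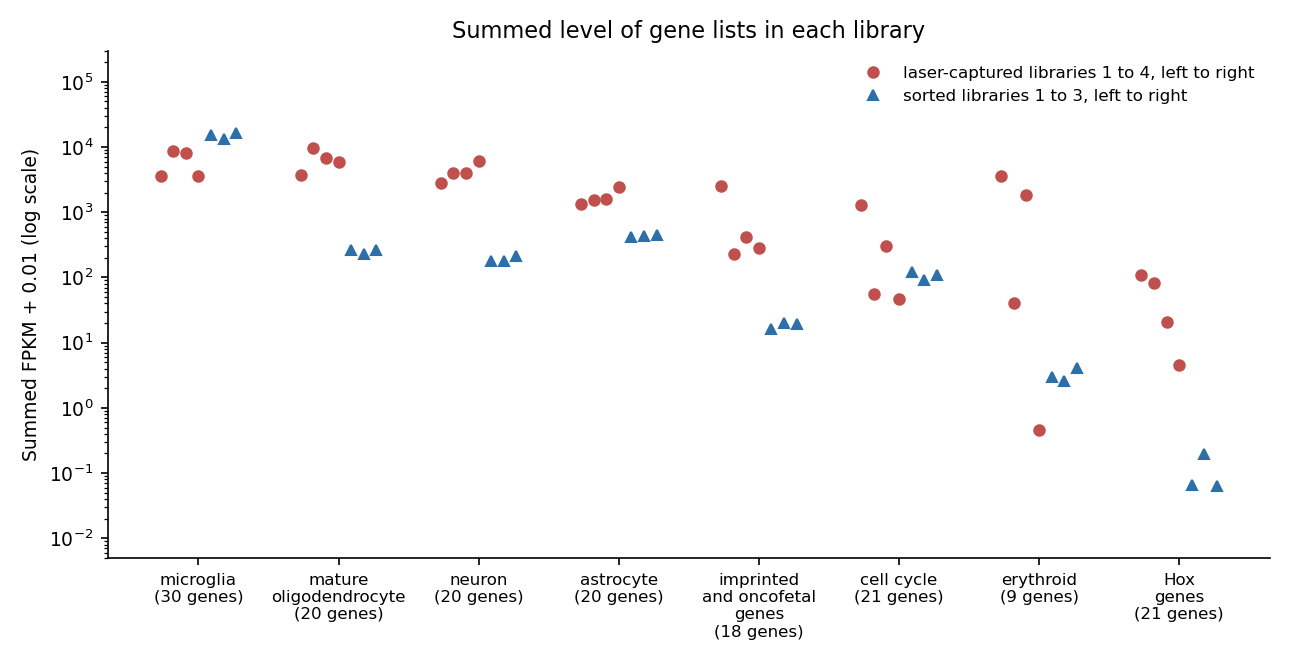
Summed FPKM (log scale, 0.01 added) of 8 gene lists in each library, red circles for laser-captured libraries 1 to 4 and blue triangles for sorted libraries 1 to 3, from left to right. Erythroid and cell-cycle sums are highest in the laser-captured libraries 1 and 3, whereas neuron, astrocyte and oligodendrocyte sums lie above the sorted values in all 4.

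A comparison of the same groups stands in the authors' deposited table, which calls 760 of 14813 genes tested there, 663 higher and 97 lower in the laser-captured group. The smallest significant log2 changes in the authors' deposited table were 2.58 upward and −2.14 downward. Of the 596 higher calls of the authors' deposited table that were tested here, 517 (86.7%) were called higher here, and these were 33.1% of the 1563 higher calls here that both tables hold. Of 64 lower calls in the authors' deposited table, 63 (98.4%) were called lower here, which is 3.01% of the 2096 lower calls here. For 62 of the 97 lower calls, the authors' deposited table lists the laser-captured group at 0. The authors' deposited tables of genes higher in 1 group also hold genes without a significant call: 968 of 1631 listed as higher after laser capture (59.4%) and 232 of 329 listed as higher after sorting (70.5%). The level of those 968 genes in the laser-captured group had a median of 1.52 FPKM in the authors' deposited table, with the sorted group at 0 in each.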

How the data were processed

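RNA of GFP expressing microglia was amplified with an Ovation RNA-Seq kit and sequenced, per the labels' protocols. The submitters' processing notes name CASAVA 1.8.2, TopHat2 2.0.4, Bowtie2 2.0.0, Cufflinks 2.0.2 and build mm9, without their order or settings. The authors deposited FPKM values per gene and library. Their deposited comparison gives group FPKM, log2 fold changes, p-values and q-values, and was used only where it is named. Whether counting used strand, how fragments with several positions were treated and the true depth are not given in the sources used here. Low FPKM values did not resolve into whole reads (54.5% to 74.5% of the values tried came within 0.2 of a whole number), so no count test was run and depth limits the precision to an unknown degree.

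Genes with at least 1 FPKM in at least 3 of the 7 libraries were kept. The log2 values of FPKM + 1 were fitted with limma 3.58.1 (trend and robust), 4 laser-captured against 3 sorted libraries, and p-values were Benjamini-Hochberg adjusted over all 13403 genes. The added 1 makes fold changes of low genes too small on this scale. Tested on simulated data with the unequal spread of the 2 groups, the fit made more false calls than the nominal share, so variances per gene and group were used as an alternative. Levels are compared between groups within a gene. The comparison and the gene lists (14 of cell type markers, 41 of pathways) were chosen with earlier results of these data known. Besides list members, the text names the 10 largest called changes each way without overlap and with a mean of at least 5 FPKM in the higher group (predicted genes, small RNAs and pseudogenes left out), the most abundant genes with like levels, the most variable genes in the laser-captured group and up to 4 abundant members of each list. Some genes that this rule names are not reported here, a small nucleolar RNA among the largest changes is left out, and Xist was checked only for labels. Other list members named were chosen after their values were seen. Gene coordinates are mm9 as deposited. Promoter windows are from RefSeq and transcript properties from GENCODE M21, both on GRCm38, matched by name or gene ID (97.0% of tested genes had a transcript). Alternatives were another pseudocount, filter, scaling or variance model, a sex term, a replicate block and leaving out libraries.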

Additional observations from a re-analysis of the deposited data

Results flagged for a closer look

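For 175 genes named here, the 4 laser-captured values were searched for a single value far from the other 3, with Dixon's gap test at its 95% critical value on the log2(FPKM + 1) scale. Chance flags about 1 in 20 groups chosen without their values, but some genes here were named after their values were seen. The 19 genes that met the rule, 9 of them through library 1, cannot be set against that rate. Where 3 of the 4 values were 0, as for Capg, Ccl3 and Gabra6, any value above 0 met the rule. Groups of 3 were not tested, so the sorted libraries stay out of this search.

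In library 1, Igf2 stood at 450.1 FPKM above the 26.8 to 43.0 FPKM of the others, Eef1a1 at 1341 FPKM above 542 to 579 FPKM and Actg1 at 157 FPKM above 53.9 to 58.5 FPKM. The same library was low for Tubb4a (482 FPKM against 1188 to 1370.0 FPKM), Vamp2 (46.8 against 208 to 263), Malat1 (349.9 against 951 to 1094), Sparc (408 against 712 to 742), Fth1 (179 against 349 to 388) and Mbnl1 (8.75 against 33.9 to 43.5).

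Library 2 held Rgs1 at 20.2 FPKM against at most 0.119 FPKM in the others, Ccl3 at 11.6 FPKM with the others listed at 0, and Tnf at 5.91 FPKM against at most 0.0957 FPKM. Capg stood at 0.735 FPKM in library 2 with the others listed at 0. All 4 values of each of these 4 genes still lay below the sorted values.

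Library 3 was high for Tgfbr1 (158 FPKM against 60.3 to 70.3 FPKM), Cartpt (42.0 FPKM against at most 0.384 FPKM), Tph2 (29.2 FPKM against at most 0.229 FPKM) and Ccl2 (1.55 FPKM against at most 0.114 FPKM), and low for Dynll2 (11.0 FPKM against 17.7 to 19.2 FPKM). Gabra6 stood at 0.146 FPKM in library 2 and was listed at 0 in the others.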

How the results depend on the processing

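Of the 4305 calls, those kept in any of the 18 alternatives did not change direction there. Calls that ended were checked for direction only among the genes named here, and none of these reversed. With all libraries as deposited 1681 genes were higher and 2624 lower. A mean of at least 5 FPKM as filter, which tests fewer genes, gave 1115 higher and 1464 lower. Median ratio scaling gave 1252 lower, variances estimated per gene and group gave 957 higher and 1388 lower, and the laser-captured libraries 2 and 4 alone gave 4227 lower. The cause was not tested. Leaving out each library in turn gave 897 to 2134 higher and 1081 to 3376 lower calls. The remaining counts came within 1.5 times the reported ones. With the replicate number as a block, 1437 genes were higher and 1933 lower, but same-numbered libraries did not deviate together (r = −0.0161, 0.00635 and −0.0286 over genes), so the numbers were not taken as pairs. Of 110 called genes named here, 73 kept their call with variances per gene and group, 93 under median ratio scaling, 96 with the block, 78 to 80 without 1 sorted library and 97 to 110 in the other settings that test all of them. Median ratio scaling ended the calls of Cd79b, Cxcl12, Ern1, Hk2, Itpr2, Mbnl1, Mrc1, P2rx7, P2ry12, Pfkfb3, Pmp22, Sall1, Sfpi1, Snhg1, Snhg12, Tgfbr1 and Vav1. Variances per gene and group ended those of Adora1, Adora3, Ccdc92, Cd14, Cd79b, Cdr1, Ctsc, Ctss, Cxcl12, Cxcl14, Cybb, Dock2, Eef1a2, Egr1, Ern1, Foxj1, Hk2, Jun, Lrrc33, Mbnl1, Mest, Mrc1, Nfkbiz, P2ry12, Pfkfb3, Pmp22, Rgs1, Rgs8, Sall1, Sfpi1, Snhg12, Sox2, Steap2, Tgfbr1, Tnf, Tob1 and Vav1. In the other direction, 20 named genes without a call gained one from laser-captured libraries 2 and 4 alone and 16 without laser-captured library 1. Hist1h2bm, not called with all libraries, was lower with the laser-captured libraries 2 and 4 only (log2 change −2.74, adjusted p = 0.00786 in limma). The depth, known only as an estimate, and the spread of the laser-captured libraries limit what can be detected, and a gene not called is not shown to be equal.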
